A study of Triticum aestivum with 14 samples.

Results

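The accessible chromatin regions (ACRs) of homoeologous group 6 of bread wheat are those on chromosomes 6A, 6B and 6D. They were chosen by the chromosome name alone, and their 6 lists held 111202 of the 892288 ACRs of the series. Accessibility was measured by ATAC-seq, in which the Tn5 transposase places sequencing adapters in open DNA, in sorted nuclei of the winter wheat cultivar AK58. The vernalized plants spent 1 month in a cold chamber at 4°C and then 1 day in the greenhouse before leaf, axillary bud and shoot apex were sampled. The unvernalized plants, sampled for the same 3 tissues, were 2 weeks old, so the 2 conditions differed in age as well as in cold, and these cannot be told apart. The labels gave 2 samples for each of these 6 groups, and 1 ACR list was analysed per group. The sources used here do not say whether a list was made from 1 replicate or from pooled replicates, or how many plants were pooled. A single list per group leaves no spread between replicates, so no test between conditions was made and no p-value is given. The lists held positions only and do not give the sequencing depth behind each ACR, and depth was not analysed here.

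Bread wheat is an allohexaploid, and the A, B and D sub-genomes each contribute a version of every chromosome, called homoeologues, that carry mostly the same genes in the same order. In all wheat chromosomes genes are dense towards both ends and sparse around the centromere, where long stretches of transposable elements lie. The group 6 homoeologues are known for the alpha-gliadin storage protein genes near the ends of their short arms, and 6B also carries a nucleolus organizer, an array of ribosomal RNA genes. Vernalization is the long cold period that a winter cultivar needs before its shoot apex turns from leaf to flower production. In the reference used by the authors, IWGSC RefSeq v1.0, the 3 chromosomes spanned 473.6 Mb (6D), 618.0 Mb (6A) and 721.0 Mb (6B) up to the last ACR. Neither sequence nor gene annotation of this build was analysed here, and regions are described by position only.

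The 3 homoeologues carried different densities of ACRs, with the order 6D, 6B, 6A in each of the 6 lists. Chromosome 6D had 11.6, 14.9 and 13.1 ACRs per Mb in vernalized leaf, axillary bud and shoot apex, and 10.9, 15.2 and 11.4 ACRs per Mb in the unvernalized lists of the same tissues. On 6A the density was 7.43, 10.3 and 8.85 ACRs per Mb in the vernalized lists and 7.67, 10.5 and 7.74 ACRs per Mb in the unvernalized ones. On 6B it was 7.90, 11.4 and 9.89 ACRs per Mb in the vernalized lists, and 8.44, 11.2 and 9.79 ACRs per Mb in the unvernalized ones. The density of 6A relative to 6B was 0.791 in unvernalized shoot apex (0.762 to 0.820) and between 0.895 and 0.946 in the other 5 lists.

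**Figure D1:**
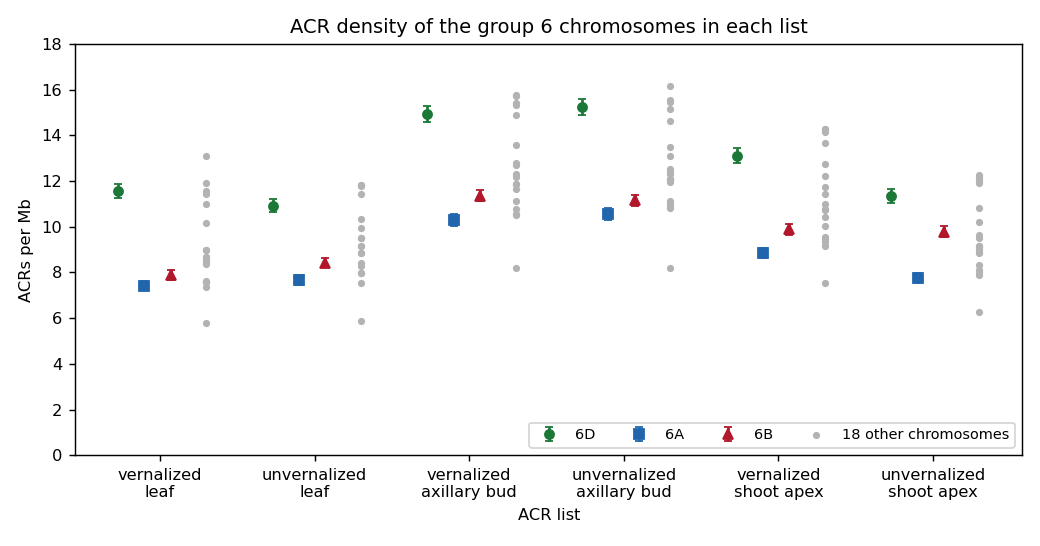
ACRs per Mb (y axis) of chromosomes 6D, 6A and 6B in the 6 lists (x axis), with 95% Poisson intervals that cover counting error only. Grey points are the 18 other chromosomes. 6D lies highest of the homoeologues in each list, and 6B moves away from 6A in unvernalized shoot apex.

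Relative to 6A, 6D was 1.47 times as dense on average over the lists. The ratio ran between 1.43 (95% interval 1.37 to 1.48) in unvernalized leaf and 1.56 (1.50 to 1.62) in vernalized leaf. Relative to 6B, 6D was 1.32 times as dense on average, between 1.16 (1.12 to 1.20) in unvernalized shoot apex and 1.47 (1.41 to 1.52) in vernalized leaf. All intervals of counts, ratios and shares in this text are 95% intervals for counting error only. Neighbouring ACRs are not independent, so the true uncertainty is wider. The order of the homoeologues was thus the same in all 6 lists, and the size of the 6D excess over 6B was not.

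Within their own sub-genomes the homoeologues took different places. 6A was the sparsest of the 7 A chromosomes in 5 lists, with 10.3 ACRs per Mb in vernalized axillary bud against 11.1 to 12.8 on the other A chromosomes. In vernalized leaf it ranked 6 of 7. 6D ranked between 3 and 5 of the 7 D chromosomes. 6B had the highest density of the B chromosomes in unvernalized shoot apex, with 9.79 ACRs per Mb (9.56 to 10.02) against 6.27 to 9.15 on the other B chromosomes, and ranked 3 or 4 in the other 5 lists. Group 6 as a whole made up 12.9% of the chromosome length and held between 12.2% of the ACRs of vernalized shoot apex and 13.0% of those of unvernalized shoot apex.

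ACR width hardly separated the homoeologues. The median width was 398 to 402 bp over the 3 chromosomes in vernalized leaf and 435 to 450 bp in unvernalized leaf. In axillary bud it was 550 bp on each homoeologue in the vernalized list and 650 bp on each in the unvernalized list. Shoot apex had a median of 450 bp on each in the vernalized list, and 422 to 436 bp in the unvernalized list. The medians of 6D differed from those of 6A by at most 15 bp in these lists, and from those of 6B by at most 12 bp. The share of ACRs of at least 1 kb was 25.6%, 24.9% and 26.7% on 6D, 6A and 6B in vernalized axillary bud, against 33.1%, 32.3% and 31.8% in unvernalized axillary bud. In vernalized leaf it was 12.1%, 11.2% and 11.4%, the lowest of the lists on each chromosome. The lists also differed in how widths fell on the authors' bins. The share of ACRs whose width was a whole number of bins was 12.6% to 13.0% in unvernalized shoot apex but 77.0% to 77.5% in vernalized shoot apex, and its part in the differences below was not tested.

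ACRs of all 3 chromosomes were concentrated at the chromosome ends. The outer 20% of the length (10% at each end) held 42.9% of the ACRs of 6D (42.4% to 43.5%), 41.2% of those of 6A (40.7% to 41.8%) and 44.0% of those of 6B (43.5% to 44.5%), pooled over the 6 lists. The middle 30% held 14.4% of 6D ACRs, 12.0% of 6A ACRs and 13.9% of 6B ACRs. The ends of 6A were unlike in their load. Its decile 1 held 12.7% of its ACRs (12.3% to 13.0%) and its decile 10 held 28.6% (28.1% to 29.0%), while 6D had 18.5% and 24.5% and 6B had 19.7% and 24.3% in the same deciles. 6A was thus the homoeologue whose ACRs lay most at the far end. Its share in the middle 30% was also below that of each of the 18 other chromosomes in 4 lists, with 10.5% in vernalized axillary bud (others 11.7% to 23.2%), 9.18% in vernalized shoot apex (10.7% to 22.0%), 12.7% in unvernalized leaf (13.3% to 26.9%) and 11.3% in unvernalized axillary bud (13.4% to 26.4%).

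**Figure D2:**
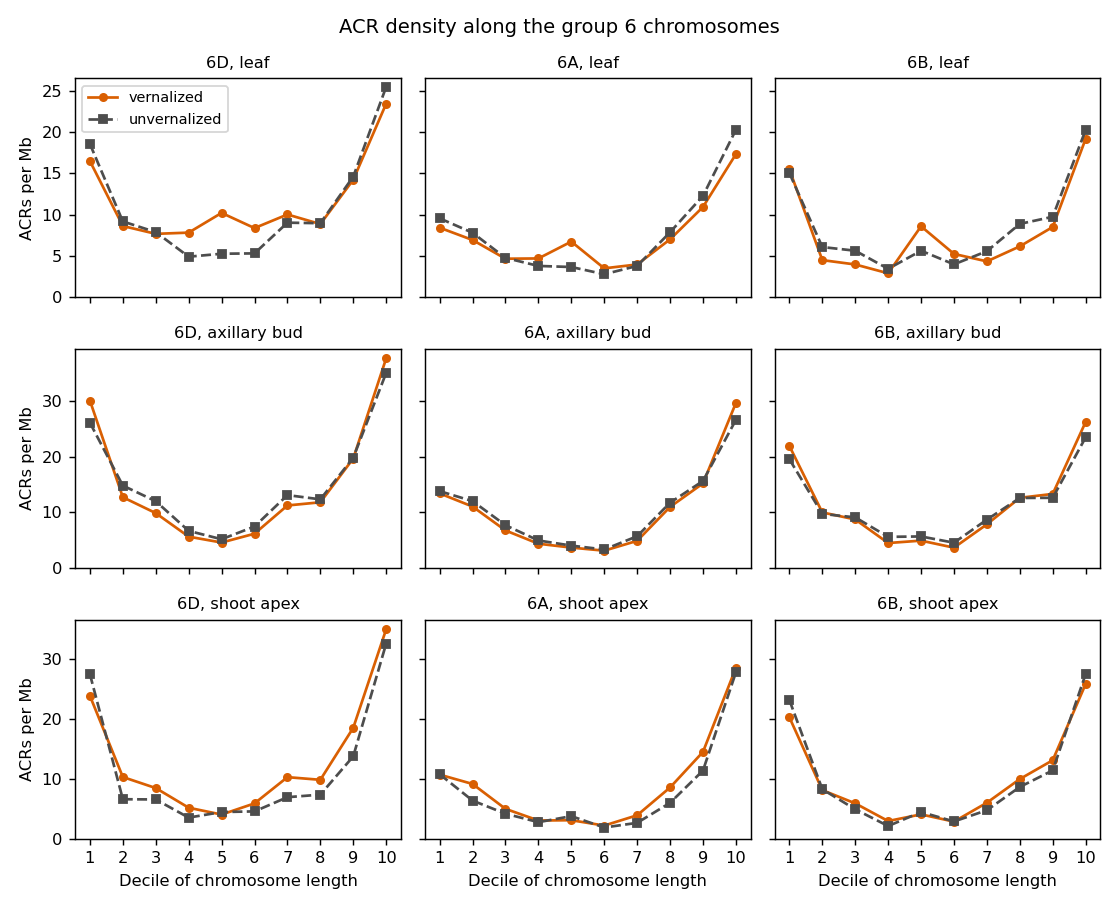
ACRs per Mb (y axis) in each decile of the chromosome length (x axis, from the first base of the assembly) for 6D, 6A and 6B (columns) in leaf, axillary bud and shoot apex (rows). Solid orange lines are vernalized and dashed grey lines unvernalized lists. Densities are high at the ends. Vernalized leaf has a peak in decile 5 on each chromosome, and on 6B the other lists have a smaller peak there.

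The profiles of the homoeologues followed each other. With each chromosome divided into 20 equal parts, the density of 6D correlated with that of 6B at r = 0.91 to 0.95 over the 6 lists, and 6D with 6A at 0.88 to 0.92. The correlation of 6A with 6B ran between 0.83 in vernalized leaf and 0.92 in unvernalized axillary bud. These describe 20 positions that share the same libraries and the same gradient towards the ends. The pair 6D and 6B was the closest one in each list.

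The densest stretches lay at the far ends. The densest 1 Mb window of 6D, at 462000001 to 463000000, held 446 ACRs summed over the lists, with 48, 81 and 83 in vernalized leaf, axillary bud and shoot apex, and 55, 81 and 98 in the unvernalized lists. On 6A the window at 611000001 to 612000000 held 406, and on 6B that at 715000001 to 716000000 held 440. The median window held 55 on 6D, 35 on 6A and 42 on 6B, so these windows were several times denser than the usual one. At the other extreme, the longest stretch with no ACR in any list measured 2211 kb on 6D, from 279634273 to 281845702, and 2187 kb on 6A, from 163926413 to 166113639. On 6B it was 6565 kb, from 268415709 to 274980873, at 38.1% of the chromosome. Whether reads can be placed in that stretch was not tested.

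Vernalization was compared first by number. In shoot apex the vernalized list held 6207 ACRs on 6D against 5379 in the unvernalized list (15.4% more, interval 11.2% to 19.7%), and 5470 on 6A against 4784 (14.3% more, 9.97% to 18.9%). 6B held 7130 ACRs in the vernalized list against 7059 in the unvernalized one, a difference of 1.01% (-2.28% to 4.40%). The 18 other chromosomes had 13.0% to 21.8% more, so 6B was the only one of the 21 below that range. Group 6 as a whole had 9.20% more ACRs in vernalized shoot apex, 16.5% more among ACRs of at least 500 bp and 14.8% more once ACRs up to 1 kb apart were joined. Without 6B, the value for 6D and 6A together was 14.9%, against 17.6% for the 18 other chromosomes. For ACRs of at least 500 bp alone the value of 6B was 7.98%, against 18.4% to 34.9% on the 18 others.

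In leaf and axillary bud the values over all ACRs did not share a sign between the homoeologues. In leaf, 6D had 5485 ACRs in the vernalized list against 5174 in the unvernalized list, a change of 6.01% (2.04% to 10.1%). The change was -3.10% on 6A (-6.98% to 0.933%) and -6.40% on 6B (-9.73% to -2.93%). In axillary bud it was -2.02% on 6D, -2.32% on 6A and 1.93% on 6B, each with an interval that held 0. The value of 6B in axillary bud was nevertheless the highest of the 21 chromosomes, where the 18 others ran between -3.83% and 1.69%. These signs depended on narrow ACRs. Counted over ACRs of at least 500 bp alone, the leaf change was -9.88% on 6D, -13.5% on 6A and -18.7% on 6B, and the axillary bud change was -15.5%, -17.6% and -9.74%, so that all were negative. The length covered by ACRs was also lower in the vernalized list on each homoeologue, with -6.27%, -10.8% and -15.5% on 6D, 6A and 6B in leaf and -15.3%, -16.1% and -9.91% in axillary bud. In shoot apex covered length was 21.6% higher on 6D, 19.6% higher on 6A and 2.96% higher on 6B.

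**Figure D3:**
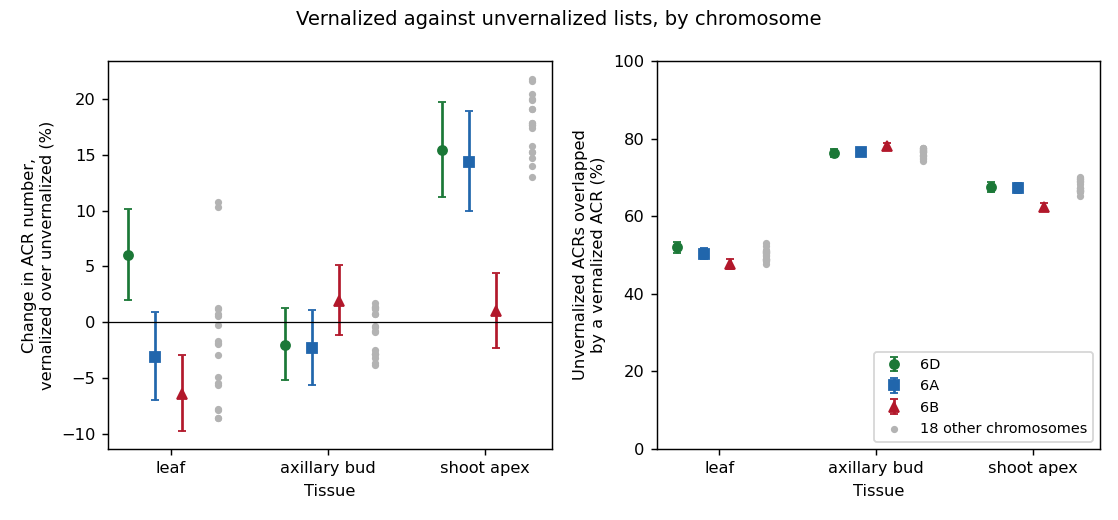
Left, change in ACR number in the vernalized relative to the unvernalized list (%, y axis) by tissue (x axis) for 6D, 6A and 6B, with exact 95% counting intervals. Right, percent of unvernalized ACRs overlapped by a vernalized ACR, with Wilson intervals. Grey points are the 18 other chromosomes. In shoot apex 6B lies below all of them in both panels (1.01% and 62.4%).

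Individual ACRs were then followed by overlap of at least 1 bp between the lists of a tissue. An unvernalized ACR with an overlap was retained and one without was lost, and a vernalized ACR without an overlap was gained. These words describe calls in single lists and not a tested change in signal. The authors identified differential ACRs from counts of Tn5 insertions, which were not available here. They reported fewer of them in shoot apex than in axillary bud, the reverse of the order of gains and losses by overlap. In shoot apex, 1743 ACRs of 6D (32.4%), 1566 of 6A (32.7%) and 2655 of 6B (37.6%) were lost. Over all chromosomes 32.5% of unvernalized shoot apex ACRs were lost. Gained ACRs numbered 2741 on 6D (44.2%), 2365 on 6A (43.2%) and 2769 on 6B (38.8%), with 44.2% gained over all chromosomes. 6B thus had a larger lost share and a smaller gained share than its homoeologues. Its retained share of 62.4% (61.3% to 63.5%) was 5.21 points below that of 6D (3.52 to 6.89) and 4.88 points below that of 6A (3.13 to 6.62). It was also below the 65.2% to 70.1% of the 18 others. With a reciprocal overlap of 50% the difference was 0.986 points for 6D minus 6B and 2.32 points for 6A minus 6B, and 6B, at 38.3%, lay just under the 38.6% to 41.1% of the 18 others. By shared length the order was different. The Jaccard index between the shoot apex lists, the bp common to both over the bp in at least 1, was 0.434 on 6B, rank 2 of 21, against 0.422 on 6D and 0.426 on 6A (18 others 0.407 to 0.439). Of the 6B ACRs that changed in shoot apex, 51.1% were gains, against 61.1% on 6D, 60.2% on 6A and 58.8% to 64.7% on the others.

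Axillary bud kept most of its ACRs. There 1711 ACRs of 6D (23.7%), 1535 of 6A (23.6%) and 1766 of 6B (22.0%) were lost, where 23.6% were lost over all chromosomes. Gains numbered 1243 on 6D (17.6%), 1038 on 6A (16.3%) and 1650 on 6B (20.1%), where 17.9% were gained over all chromosomes. In this tissue 6B had the highest gained share of the 21 chromosomes, and the difference of 6D minus 6B was -2.56 points and that of 6A minus 6B -3.83 points, with both intervals below 0. Leaf kept the fewest. Leaf losses came to 2484 on 6D (48.0%), 2355 on 6A (49.7%) and 3180 on 6B (52.3%), where 50.01% were lost over all chromosomes. Leaf gains came to 2747 on 6D (50.1%), 2195 on 6A (47.8%) and 2736 on 6B (48.1%), with 48.2% over all chromosomes. 6D retained 4.28 points more than 6B in leaf (2.42 to 6.13), and 2.11 points more with a reciprocal overlap of 50%. For 6D over 6A the difference was 1.70 points, with an interval of -0.275 to 3.66 that held 0. All these shares depend on the overlap asked for. With a reciprocal overlap of 50%, the retained share of group 6 was 29.4% in leaf and 39.3% in shoot apex, against 49.9% and 65.4% with 1 bp. In axillary bud it was 57.9%, against 77.0% with 1 bp. The order of the tissues also depended on width. Among ACRs of at least 500 bp the share was 71.2% in axillary bud, 71.8% in shoot apex and 49.4% in leaf. Axillary bud then had no lead over shoot apex.

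The retained share was higher for wide ACRs. In shoot apex, 41.9% of the group 6 ACRs of 200 to 300 bp were retained, against 96.2% of those of at least 1 kb. The same shares were 48.4% and 96.8% in axillary bud and 25.3% and 83.6% in leaf. The lower value of 6B in shoot apex was present at each width. Its retained share was 38.1% for 200 to 300 bp, 52.9% for 300 to 500 bp, 77.2% for 500 bp to 1 kb and 94.98% above that, against 44.7%, 60.9%, 82.4% and 97.3% on 6D and 44.3%, 60.4%, 81.3% and 97.0% on 6A. The gap to both homoeologues was widest at 300 to 500 bp and smallest at 1 kb and above.

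Changes in number were not uniform along the chromosomes. In leaf, the middle 30% of each homoeologue held more ACRs in the vernalized than in the unvernalized list. The middle of 6D held 1278 ACRs in the vernalized list against 797 in the unvernalized list, a change of 60.4% (46.7% to 75.4%). The change was 48.1% on 6A (33.4% to 64.5%), with 893 against 603, and 29.3% on 6B (18.7% to 40.8%), with 1241 against 960. In the outer 20% the change was -9.30% on 6D, -13.7% on 6A and -1.81% on 6B. For the middle of group 6 the change was 44.6%, against 16.0% over the middles of the 18 other chromosomes, whose single values ran between -11.0% and 62.6%. Among ACRs of at least 500 bp the value for group 6 was 24.9%. None of the 3 homoeologues thus lay outside that range.

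By deciles of the chromosome length, the leaf difference was highest in decile 5, just before the midpoint, on all 3 homoeologues, with 93.6% on 6D, 83.7% on 6A and 52.3% on 6B. The 18 other chromosomes had a median of 39.0% in this decile (-0.703% to 128%), so the increase was not particular to group 6. Density there was 10.2, 6.75 and 8.599 ACRs per Mb on 6D, 6A and 6B in vernalized leaf, against 5.28, 3.67 and 5.65 ACRs per Mb in unvernalized leaf. The same decile had a negative value in the other tissues. It was -11.4%, -8.84% and -13.2% in axillary bud and -9.48%, -18.0% and -8.72% in shoot apex on 6D, 6A and 6B. The 18 others were also all negative in axillary bud (-26.6% to -5.53%). In shoot apex they had a median of 14.2% (-25.4% to 77.8%). The 1 Mb window with the largest leaf increase on 6D, at 214000001 to 215000000, held 32 ACRs in vernalized leaf against 4 in unvernalized leaf. In the other 4 lists that window held between 1 and 4, so vernalized leaf stood apart there. On 6A the corresponding window, at 268000001 to 269000000, held 32 ACRs in vernalized leaf against 14 in unvernalized leaf, and between 5 and 9 in the other lists. On 6B the largest increase of any tissue lay elsewhere, at 659000001 to 660000000, with 38 ACRs in vernalized leaf against 11 in unvernalized leaf. The other 4 lists held between 24 and 27 in that 6B window, so unvernalized leaf was the lowest list. ACRs of the middle were narrow in vernalized leaf, with a median of 350 bp on each homoeologue, against 417 to 428 bp in the outer 20%.

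Chromosome 6B had a further feature in leaf. The change in ACR number in its deciles 3, 4 and 8 was -29.5%, -15.7% and -30.6%, the lowest of 20 chromosomes in each of these deciles. Chromosome 1B was left out of this ranking because its deciles 1, 2 and 3 held at most 26 ACRs in any list. The corresponding values were -2.67%, 59.2% and -1.18% on 6D and -2.03%, 23.8% and -10.9% on 6A. These deciles were picked for their rank, and 6B was not low throughout. Its value in decile 1, 2.95%, was the highest of the 20 chromosomes, and it ranked 7 in decile 5 and 4 in decile 6. Between the outer 20% and the middle 30%, 6B retained 41.8% of its leaf ACRs (39.9% to 43.7%), against 51.6% on 6D (49.5% to 53.6%) and 50.4% on 6A (48.3% to 52.4%). Pooled over the chromosomes of the other homoeologous groups, the share in this stretch was 48.8% (48.4% to 49.2%). The interval of 6B lay below those of its homoeologues and of this pool, but these intervals cover counting error only. Shares of the single other chromosomes are not given for this stretch, so whether 6B lay outside their range was not tested. The largest decrease of 6B in leaf for a single window was the window at 114000001 to 115000000, with 4 ACRs in vernalized leaf against 19 in unvernalized leaf.

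**Figure D4:**
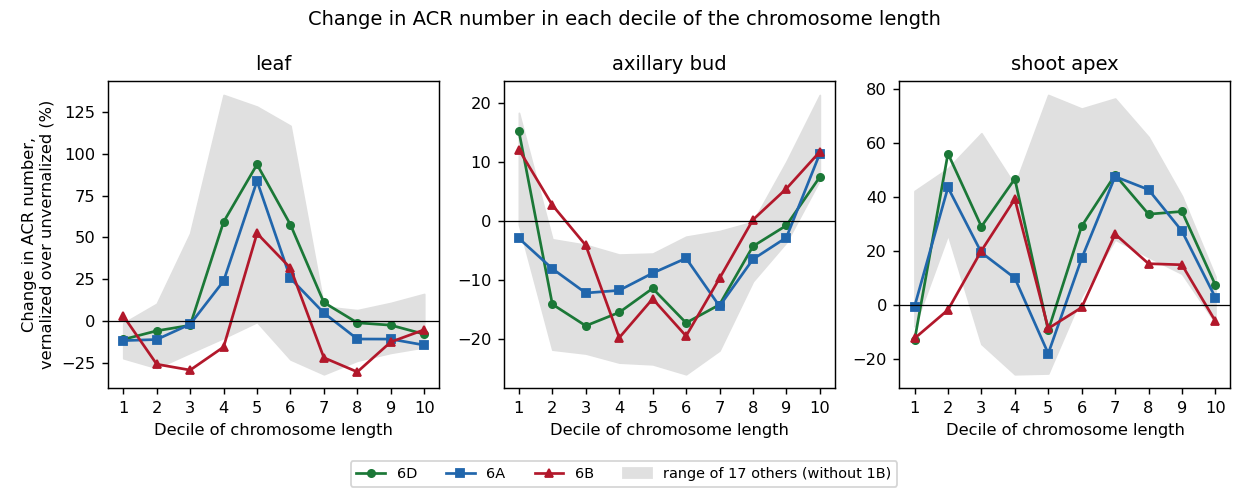
Change in ACR number in the vernalized relative to the unvernalized list (%, y axis, scales differ) in each decile of chromosomes 6D, 6A and 6B (x axis), for leaf, axillary bud and shoot apex. The grey band is the range of 17 other chromosomes, without 1B. Leaf values peak in decile 5 on all 3 homoeologues, and 6B lies low in most deciles in shoot apex.

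In shoot apex the low value of 6B was spread along the chromosome. Among the 20 chromosomes without 1B it ranked between 16 and 20 in 9 of its deciles, and 4 in decile 4. Decile 2 differed most from the homoeologues. There 6B had 584 ACRs in the vernalized list against 595 in the unvernalized list, a change of -1.85%. The change was 56.1% on 6D (487 against 312) and 43.5% on 6A (564 against 393), and it ran between 26.0% and 50.6% on the 17 others. Leaving out deciles 1 and 2, a choice made after these values were seen, gave 6.02% for 6B, still under the 12.5% to 23.9% of the 18 others. The unvernalized shoot apex list of 6B was also rich relative to axillary bud in this stretch, with a ratio of 0.849 ACRs per unvernalized axillary bud ACR in decile 2, against 0.445 on 6D, 0.530 on 6A and 0.426 to 0.607 on the 18 others.

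At the beginning of 6D and 6B, axillary bud and shoot apex differed in opposite directions. Decile 1 of 6D had 15.2% more ACRs in vernalized than in unvernalized axillary bud, and -13.2% in shoot apex. Decile 1 of 6B had 12.1% more in axillary bud and -12.4% in shoot apex. On 6A the values were -2.93% in axillary bud and -0.602% in shoot apex. In shoot apex 6D and 6B were the lowest of the 20 chromosomes without 1B (range of the 17 others -7.95% to 42.2%). In axillary bud 6A was the lowest of the 20 (17 others -0.577% to 18.4%). 6D and 6B thus had opposite signs in the tissues, and 6A did not. Decile 10 of 6B also had opposite signs, with 11.8% in axillary bud and -6.02% in shoot apex, while 6D had 7.48% and 7.34% and 6A 11.4% and 2.69% there. The interval of the 6B shoot apex value held 0 (-11.8% to 0.176%). Over the 18 others in decile 10, axillary bud was above 0 on each and shoot apex on 10 (-6.68% to 11.1%). Opposite signs in decile 10 were thus not particular to 6B.

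Single windows showed it most plainly. The window at 3000001 to 4000000 on 6D held 80 ACRs in vernalized axillary bud against 42 in unvernalized axillary bud, and 44 in vernalized shoot apex against 97 in unvernalized shoot apex. It had both the largest axillary bud increase and the largest shoot apex decrease of the chromosome. The first window of 6B, at 1 to 1000000, also had both. It held 36 ACRs in vernalized axillary bud against 16 in unvernalized axillary bud, and 18 in vernalized shoot apex against 53 in unvernalized shoot apex. In decile 1 of 6B, 33 of 72 windows had more ACRs in axillary bud and fewer in shoot apex after vernalization, and 6 had the reverse. On 6D there were 17 of 47 such windows and 7 of the reverse, and on 6A 8 of 62 and 13 of the reverse. In decile 10 the numbers were 10 of 48 on 6D with 14 of the reverse, 18 of 62 on 6A with 12, and 31 of 72 on 6B with 10. No such window counts are given for the 18 other chromosomes, so these have no background. On those, axillary bud had more vernalized than unvernalized ACRs in decile 1 on 16 and in decile 10 on all 18. On 6A the largest shoot apex decrease was also near the beginning, at 1000001 to 2000000, with 29 ACRs in vernalized against 53 in unvernalized shoot apex, while its largest increase, at 592000001 to 593000000, was in axillary bud, with 51 in vernalized against 32 in unvernalized. The differences of both tissues correlated across the windows of decile 1 at r = -0.64 on 6D, -0.26 on 6A and -0.54 on 6B (n = 47, 62 and 72 windows, which share 4 libraries and lie next to each other), against -0.50 to 0.15 on the 18 others. In decile 10 r was -0.46 on 6B, within the -0.70 to 0.22 of the 18 others.

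Some named regions, though not all, showed the same in detail. The widest ACR gained in axillary bud on 6B, with no ACR of unvernalized axillary bud within 1 kb, lay at 116352 to 120401 and was 4050 bp wide in vernalized axillary bud. The widest ACR lost in shoot apex on 6B lay at nearly the same place, at 116596 to 120544, and was 3949 bp wide in unvernalized shoot apex. No other list had an ACR there. On 6D the widest ACR lost in shoot apex, at 5060028 to 5061825, was likewise matched only in vernalized axillary bud, over 1250 bp. The widest gained in axillary bud on 6D, at 464676802 to 464678851, was also covered in unvernalized leaf and in both shoot apex lists. On 6A that region, at 592627608 to 592629657, had 1063 bp in vernalized against 613 bp in unvernalized shoot apex. The widest lost in shoot apex on 6A, at 127174179 to 127175887, was covered over 1709 bp in both axillary bud lists. Regions called in vernalized axillary bud and unvernalized shoot apex alone numbered 104 on 6D (0.875%), 76 on 6A (0.734%) and 184 on 6B (1.32%) of the consensus regions described below, against 0.800% over all chromosomes. 6B ranked first of the 21 chromosomes, where the 18 others ran between 0.554% and 0.979%. Of these regions, 84.6% on 6D, 67.1% on 6A and 64.7% on 6B lay in the outer 20%. For group 6 the share was 70.9%, against 41.9% for all regions in 2 lists. It was 74.6% for regions in both shoot apex lists alone, so a distal position was not particular to this pair. For unvernalized shoot apex and unvernalized axillary bud alone it was 44.8%.

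Tissue sharing was compared within each condition. In unvernalized shoot apex, 1072 ACRs of 6D (19.9%), 919 of 6A (19.2%) and 1791 of 6B (25.4%, 24.4% to 26.4%) overlapped no leaf or axillary bud ACR. The share was 20.5% over all chromosomes, and no other chromosome exceeded 22.5%. In vernalized shoot apex the same share was 14.6% on 6D, 13.5% on 6A and 15.8% on 6B, against 15.5% over all chromosomes, so 6B then lay within the range of the others (13.5% to 17.1%). The share of unvernalized axillary bud was taken against the same unvernalized shoot apex list, so it is not an independent result. The axillary bud share was 37.0% on 6D, 36.1% on 6A and 32.6% on 6B, against 36.2% over all chromosomes, and 6B was the lowest of the 21. Shoot apex ACRs overlapped 47.8%, 48.1% and 54.2% of the unvernalized axillary bud ACRs of 6D, 6A and 6B. Leaf ACRs overlapped 48.2%, 49.2% and 49.8%. In vernalized axillary bud the share was 27.1% on 6D, 26.5% on 6A and 28.6% on 6B, against 26.4% over all chromosomes.

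In vernalized leaf 46.2% of 6D ACRs, 44.9% of 6A ACRs and 45.0% of 6B ACRs were in no other tissue, against 44.7% over all chromosomes. In unvernalized leaf the shares were 17.5%, 16.7% and 18.3% on 6D, 6A and 6B, against 18.5% over all chromosomes. The homoeologues stayed within 2 points of each other in both lists. With a reciprocal overlap of 50%, the tissue-only shares of group 6 were higher, between 41.9% in vernalized shoot apex and 72.6% in vernalized leaf. Sharing was also measured by length, with the Jaccard index of each pair of lists. On group 6 vernalized leaf had an index of 0.198 to 0.213 with the axillary bud and shoot apex lists, and 0.313 with unvernalized leaf. Vernalized and unvernalized axillary bud had the highest index of any pair, 0.603 on 6D, 0.607 on 6A and 0.609 on 6B. On each homoeologue unvernalized shoot apex was closer to vernalized axillary bud (0.433, 0.433 and 0.467 on 6D, 6A and 6B) than to vernalized shoot apex (0.422, 0.426 and 0.434). The index with vernalized axillary bud is not given for the 18 other chromosomes, so whether this order is particular to group 6 was not tested.

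Overlapping ACRs of the 6 lists were merged into 36124 consensus regions on group 6, of 289328 in all. Of these, 1478 on 6D (12.4%), 1333 on 6A (12.9%) and 1679 on 6B (12.1%) were called in each of the 6 lists, against 12.5% over all chromosomes. Regions called in a single list numbered 4891 on 6D (41.2%), 4045 on 6A (39.1%) and 5738 on 6B (41.3%), against 40.6% over all chromosomes. The spread of regions over the lists was thus close to that of the genome. Median width was 1850 bp for regions in all 6 lists and 250 bp for those in a single list.

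The widest region in all 6 lists was 17350 bp wide on 6D, at 438802653 to 438820002. On 6A it was 19686 bp wide, at 605222611 to 605242296, and on 6B 15757 bp, at 696632739 to 696648495. Each lay in decile 10 of its chromosome. In these regions vernalized leaf covered much less than the other lists, with 600 bp on 6D, 900 bp on 6A and 1334 bp on 6B. Unvernalized leaf covered 5122 bp, 10487 bp and 11431 bp of the same regions, and unvernalized axillary bud covered 16800 bp, 19650 bp and 15100 bp.

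**Figure D5:**
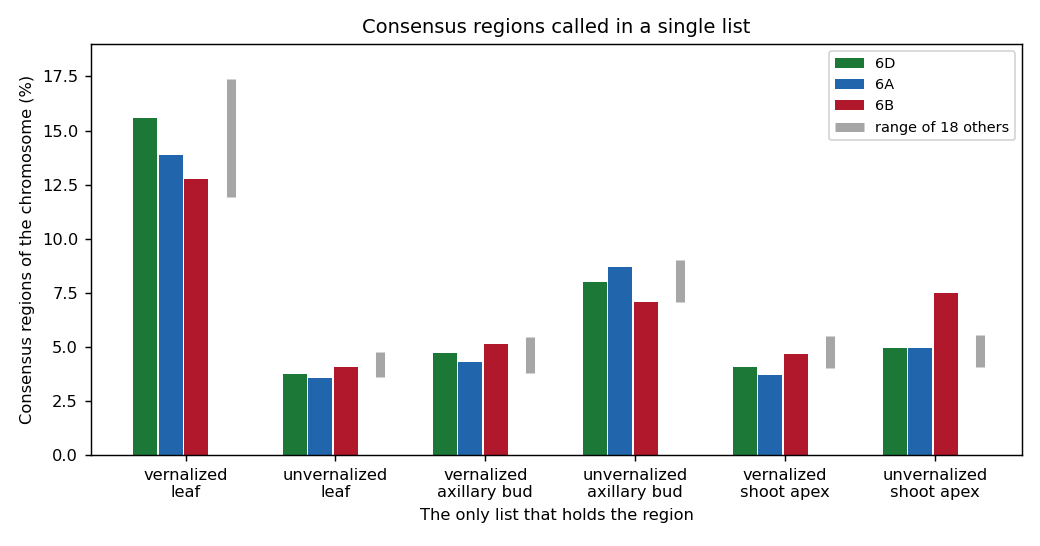
Percent of the consensus regions of 6D, 6A and 6B (y axis) that were called in 1 list only, by list (x axis). Grey bars are the range of the 18 other chromosomes. Vernalized leaf holds the most on each homoeologue (12.8% to 15.6%), and 6B lies above the others' range in unvernalized shoot apex (7.51%).

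Which single list held a region differed between the homoeologues. Vernalized leaf alone held 1850 regions on 6D (15.6%), 1435 on 6A (13.9%) and 1776 on 6B (12.8%), against 13.9% over all chromosomes. Unvernalized shoot apex alone held 591 on 6D (4.97%), 512 on 6A (4.95%) and 1044 on 6B (7.51%, 7.09% to 7.96%), against 5.14% over all chromosomes and 4.10% to 5.58% on the 18 others. For ACRs of at least 500 bp the share on 6B was 4.19%, and the other chromosomes were not ranked at that width. Unvernalized axillary bud alone held 953 on 6D (8.02%), 899 on 6A (8.69%) and 984 on 6B (7.08%), against 8.19% over all chromosomes. The other 3 lists held fewer. Vernalized axillary bud alone held 4.75%, 4.33% and 5.15% of the regions of 6D, 6A and 6B, against 4.66% over all chromosomes. Vernalized shoot apex alone held 4.08%, 3.69% and 4.70%, against 4.59%. Unvernalized leaf alone held 3.77%, 3.57% and 4.07%, against 4.14%. The regions of vernalized leaf alone and those of unvernalized shoot apex alone differed in position. On group 6, 32.3% of regions found in vernalized leaf alone lay in the middle 30% and 30.4% in the outer 20%. Of those found in unvernalized shoot apex alone, 8.20% lay in the middle and 63.6% in the outer 20%. Over all single-list regions of group 6 the shares were 18.7% and 40.3%.

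Few regions changed in the same direction in each tissue. Regions in all 3 vernalized lists and in none of the unvernalized ones numbered 10 on 6D, 9 on 6A and 15 on 6B, 0.0941% of group 6 regions against 0.0964% over all chromosomes. The reverse was found for 6, 10 and 8 regions on 6D, 6A and 6B, 0.0664% of group 6 regions against 0.0888% over all chromosomes. Both shares were near those of the genome. The widest of the gained regions was 1250 bp on 6D, at 9881973 to 9883222, with 958, 900 and 250 bp covered in vernalized leaf, axillary bud and shoot apex. On 6A it was 1332 bp wide, at 311850242 to 311851573, and on 6B 1163 bp, at 679650845 to 679652007. The widest lost region, 3550 bp on 6B at 146648146 to 146651695, was covered over 558, 3550 and 499 bp in unvernalized leaf, axillary bud and shoot apex. Those of 6D (424710766 to 424712015) and 6A (206352486 to 206353503) were 1250 and 1018 bp wide.

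The widest ACRs gained or lost in a single tissue were larger. On 6A, 5352 bp at 435332198 to 435337549 were accessible in vernalized leaf and in none of the other lists. On 6B the widest was 4250 bp at 22088101 to 22092350, and on 6D 2814 bp at 86658003 to 86660816, again with no ACR in the 5 other lists. The widest lost on 6D was of another kind. It was 4046 bp wide in unvernalized leaf, at 90921532 to 90925577, and stayed accessible in both axillary bud and both shoot apex lists, over 1475 to 3750 bp. The widest lost on 6A, 2928 bp in unvernalized leaf at 485392169 to 485395096, also kept ACRs in all lists but vernalized leaf. On 6B it was lost in axillary bud, over 4250 bp at 18645029 to 18649278, and the 5 other lists covered between 0 bp (both vernalized axillary bud and unvernalized shoot apex) and 3589 bp of it (unvernalized leaf).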

How the data were processed

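The authors aligned reads to IWGSC RefSeq v1.0, per the methods, with tool versions from the submitters' processing notes: fastp 0.21.0, Bowtie2 2.3.5.1, SAMtools 1.3.1, Picard 2.16.0, MACS2 2.2.6 and bedtools. They divided peaks into overlapping bins, kept bins rich in Tn5 insertions, merged near bins and removed regions shared with input or chloroplast DNA. The deposited lists hold only positions in bp (chromosome, start, end), with no counts, scores or signal. Mapping quality filters remove reads in repeats, and the bin filter sets ACR width, so number, width and overlap can all be affected. Starts are printed 1-based, and deciles count along the assembly up to the last ACR.

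Groups were taken from the labels, and input was not analysed here. Overlap required 1 bp. ACRs were placed by midpoint. Shares carry Wilson intervals, differences of shares Newcombe intervals, densities exact Poisson intervals, and ratios and changes in number exact binomial intervals, all at 95%. Named windows and regions were, per chromosome, the densest 1 Mb window, the windows of largest increase and decrease, the widest consensus regions in all 6 lists or gained or lost in all 3 tissues, the widest gained or lost ACR of a tissue with no opposite-condition ACR within 1 kb, and the longest empty stretch, with the largest over the 3 tissues printed. The leaf windows of 6D and 6A and the leaf decrease and axillary bud increase of 6B were added after their values were seen. So were the regions at 116352 (6B), 5060028 and 464676802 (6D), and 592627608 and 127174179 (6A). Chromosomes, rules and comparisons were chosen with earlier results of these data known. Overlap functions were tested on simulated data. Computations used Python 3.11.15, numpy 2.4.6, scipy 1.17.1 and matplotlib 3.10.9. Gene context was not analysed here, as the gene names on hand refer to a different build.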

Additional observations from a re-analysis of the deposited data

Results flagged for a closer look

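The change in ACR number with vernalization differed in direction between tissues, with 1 list per group, so the difference between tissues was not tested. For shoot apex it was 9.20% on group 6, with 15.4% on 6D, 14.3% on 6A and 1.01% on 6B. For axillary bud it was -0.652% on group 6, with -2.02%, -2.32% and 1.93% on 6D, 6A and 6B. For leaf it was -1.41% on group 6, with 6.01%, -3.10% and -6.40% on 6D, 6A and 6B. The direction also depended on position. The outer 20% of group 6 gave -3.86% for shoot apex, 9.96% for axillary bud and -7.60% for leaf. The middle 30% gave 10.2% for shoot apex, -13.7% for axillary bud and 44.6% for leaf. Groups of 1 list allow no check for a list that stands apart from its replicates.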

How the results depend on the processing

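No paired analysis was possible because each group had 1 list, although the labels number 2 replicates in each group. With ACRs of at least 500 bp only, the density ratio of 6D over 6A was 1.49. The share in the outer 20% was then 44.6% on 6D, 42.2% on 6A and 45.4% on 6B. The change in number on group 6 was 16.5% for shoot apex, -14.04% for axillary bud and -14.3% for leaf, and 24.9% for the leaf middle 30%. Of consensus regions 10.8% lay in all 6 lists and 34.2% in 1. The retained share was 71.8% for shoot apex and 71.2% for axillary bud, so axillary bud no longer had the larger share. With ACRs no more than 1 kb apart joined, the outer share was 40.98% on 6D, 39.5% on 6A and 41.9% on 6B, and the change in number was 14.8% for shoot apex, -2.80% for axillary bud and 1.86% for leaf, where the value over all ACRs was -1.41% with an interval that held 0. The outer 5% at each end held 27.9%, 25.3% and 25.1% on 6D, 6A and 6B. Reciprocal overlap of 50% gave retained shares of 39.3% for shoot apex, 57.9% for axillary bud and 29.4% for leaf, and tissue-only shares of 72.6%, 48.1% and 41.9% in vernalized and 52.9%, 59.98% and 54.1% in unvernalized leaf, axillary bud and shoot apex. With lists reduced to the 126351 widest ACRs, equal widths in random order, the tissue-only shares were 49.1%, 22.1% and 17.1% in vernalized and 21.8%, 23.98% and 26.05% in unvernalized leaf, axillary bud and shoot apex, and 62.2% was retained in shoot apex. Among the unvernalized lists, shoot apex then had a larger tissue-only share than axillary bud, the reverse of the order with all ACRs. Merging ACRs up to 200 bp apart left 13.3% of regions in all 6 lists and 38.4% in 1, and without vernalized leaf 21.7% lay in all 5 and 36.1% in 1. Alternatives chosen after seeing the data turned the leaf change of 6D, 6.01% over all ACRs, to -9.88% for ACRs of at least 500 bp, and gave, for 6B in shoot apex, 7.98% for ACRs of at least 500 bp, 5.75% with ACRs joined, 5.15% without decile 1 and 6.02% without deciles 1 and 2, each below all 18 other chromosomes. For 6B regions only in unvernalized shoot apex they gave 4.19% at 500 bp and 6.58% after merging at 200 bp, and for the leaf middle 20% of group 6 57.4%. Sequencing depth was not analysed here and can move number, width and overlap. The cause of these differences was not tested.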
